A study of Mus musculus with 8 samples.

Results

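Stc1, Mapk13, Adamts8 and Kcnk3 were the 4 genes of the deposited table that were clearly lower in the testes labelled Tmem232-/-. They were chosen from the readout itself, as the genes with a mean of at least 1 count per 1000000 counts of the library (CPM), a level lower by a factor of at least 2 in the libraries labelled Tmem232-/-, an adjusted p under 0.05 from edgeR, and no overlap between the genotypes. These 4 of 15787 tested genes, of 19906 in the table, are 0.0253% of those tested, and their difference between the genotypes is therefore given as a description without a test. The study asked what the loss of Tmem232, which encodes a transmembrane protein, does to sperm formation. Testes came from 4 Tmem232-/- and 4 Tmem232+/+ mice aged 2 months, with 1 library per mouse. The deletion was made with CRISPR-Cas9 in C57BL/6 embryos, is not limited to a cell type and removes a fragment between introns 4 and 8 of Tmem232. The labels name no treatment, and the whole organ was used, so that germ cells and somatic cells were measured together.

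Tmem232 itself does not verify the labels at the level of whole genes. Its level was 148, 132, 123 and 122 CPM in replicates 1 to 4 with the Tmem232-/- label, and 111, 106, 108 and 109.9 CPM in those with the Tmem232+/+ label. The groups did not overlap, as for 11.8% of all tested genes in this direction, and the gene was higher in the libraries labelled Tmem232-/- (log2 fold change 0.27, edgeR adjusted p = 0.0335), a count that covers exons outside the deleted fragment as well. The genotypes are therefore named by their labels throughout. Total counts lay between 15428421 and 16350871 per library. Replicate 3 labelled Tmem232+/+ differed most from the others of its genotype, and replicates 1 and 3 labelled Tmem232+/+ and replicate 1 labelled Tmem232-/- had the most RNA of epididymis markers, which is described with the results it touches. All 7 round spermatid markers and all 10 elongating spermatid markers rose in the libraries labelled Tmem232-/-, with medians of 1.17 and 1.64 on the log2 scale, where 10.3% of all tested genes rose.

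The 4 genes belong to different systems. Stanniocalcin 1, encoded by Stc1, is a secreted glycoprotein hormone first known for control of calcium and phosphate, and it also binds and inhibits pappalysin, the protease that frees insulin-like growth factors (IGFs) from their binding proteins. Mapk13 encodes p38 delta, a stress-activated MAP kinase. Adamts8 encodes a secreted metalloprotease with thrombospondin motifs, known for inhibition of vessel growth, and Kcnk3 encodes TASK-1, an acid-sensitive background potassium channel that helps to set the resting membrane potential. In the testis, germ cells at all stages of sperm formation are surrounded by Sertoli cells and by myoid, Leydig and vascular cells.

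The sequences before the starts of the genes of the 4 p38 kinases are shown because these kinases are close relatives and Mapk13 alone of them met the criteria. Mapk13 was also the single gene of the 4 lower ones with an entry among the RefSeq start sites used here. The 250 bases before each start (RefSeq, GRCm38.p6) are written 5' to 3' on the strand of the gene, with the GC box GGGCGG, or CCGCCC where it lies on the other strand, in capitals. The windows lie at chr17:28769067-28769316 (+ strand) for Mapk13, chr17:28691092-28691341 (+ strand) for the first of the 2 starts of Mapk14, chr15:89149607-89149856 (- strand) for Mapk11 and chr15:89140704-89140953 (- strand) for Mapk12.
Mapk13: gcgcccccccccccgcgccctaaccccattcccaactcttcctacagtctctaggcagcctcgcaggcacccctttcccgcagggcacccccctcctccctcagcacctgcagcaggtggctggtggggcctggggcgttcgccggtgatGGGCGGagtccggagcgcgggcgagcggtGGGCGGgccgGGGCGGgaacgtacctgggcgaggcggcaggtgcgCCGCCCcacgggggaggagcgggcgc
Mapk14: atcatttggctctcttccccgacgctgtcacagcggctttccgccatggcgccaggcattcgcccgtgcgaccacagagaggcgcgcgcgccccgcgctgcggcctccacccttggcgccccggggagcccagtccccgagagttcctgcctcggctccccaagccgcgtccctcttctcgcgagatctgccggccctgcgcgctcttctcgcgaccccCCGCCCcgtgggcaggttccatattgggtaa
Mapk11: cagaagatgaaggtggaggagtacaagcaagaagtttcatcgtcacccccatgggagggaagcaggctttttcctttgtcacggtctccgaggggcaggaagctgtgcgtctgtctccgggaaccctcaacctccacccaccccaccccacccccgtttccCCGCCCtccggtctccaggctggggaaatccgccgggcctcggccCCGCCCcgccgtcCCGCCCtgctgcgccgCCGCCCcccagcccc
Mapk12: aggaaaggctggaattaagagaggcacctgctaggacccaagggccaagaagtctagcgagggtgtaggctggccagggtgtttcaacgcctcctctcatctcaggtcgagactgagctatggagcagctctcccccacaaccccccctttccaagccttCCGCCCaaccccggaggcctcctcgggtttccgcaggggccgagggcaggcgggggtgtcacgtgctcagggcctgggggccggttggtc
The window of Mapk13 had a GC content of 76% and 25 CpG dinucleotides. It held 4 GC boxes, like that of Mapk11, and the windows of Mapk14 and Mapk12 held 1 each. The 250 bases before the second start of Mapk14 held none and had a GC content of 48.4%. At least 1 GC box on either strand was present in 32.7% of 32851 windows of this length, and at least 4 were present in 4.09%. The letters TATAAA, on either strand, were in none of these 4 windows and in 12.4% of all windows. A match of these letters is a description of the sequence and no binding site was measured here.

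Stc1 (Entrez 20855; GRCm38.p6 chromosome 14, 69029289 to 69041401, + strand, 1 transcript in the table) was the most abundant of the 4 by CPM. Replicates 1 to 4 with the Tmem232-/- label had 3.39, 5.21, 7.02 and 2.89 CPM, from 51, 83, 111 and 47 counts. Those with the Tmem232+/+ label had 14.0, 9.45, 14.5 and 7.80 CPM, from 225, 156, 229 and 127 counts. Replicates 1 and 3 were high among the libraries labelled Tmem232+/+, and the lowest of that group was 1.11 times the highest labelled Tmem232-/-. The means were 4.63 ± 1.88 (SD, n = 4) against 11.4 ± 3.33 CPM (SD, n = 4), so that the level in the libraries labelled Tmem232-/- was 40.5% of the other, with a log2 fold change of -1.30 (standard error 0.28). Stc1 also had the widest spread among mice, with a coefficient of variation of 40.6% in the libraries labelled Tmem232-/-, where counting alone gives 11.7%.

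Mapk13 (Entrez 26415; chromosome 17, 28769315 to 28778704, + strand, 2 transcripts) lies 36477295 bases from Tmem232 on the same chromosome. Its level was 1.80, 1.00, 0.885 and 1.41 CPM in replicates 1 to 4 with the Tmem232-/- label, from 27, 16, 14 and 23 counts. It was 2.37, 3.69, 3.04 and 2.40 CPM in those with the Tmem232+/+ label, from 38, 61, 48 and 39 counts. Of the 4 genes it had the widest gap between the groups, since the lowest library labelled Tmem232+/+ was 1.32 times the highest labelled Tmem232-/-. On average it stood at 1.28 ± 0.415 (SD, n = 4) and 2.87 ± 0.628 CPM (SD, n = 4), with a log2 fold change of -1.17 (standard error 0.25).

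Adamts8 (Entrez 30806; chromosome 9, 30940236 to 30963838, + strand, 3 transcripts) was the least abundant of the 4, and 5.12% of the tested genes had a lower mean. Its level was 0.666, 0.690, 0.759 and 0.492 CPM in replicates 1 to 4 with the Tmem232-/- label, from only 10, 11, 12 and 8 counts. The libraries labelled Tmem232+/+ had 1.68, 1.51, 0.950 and 1.72 CPM, from 27, 25, 15 and 28 counts. Replicate 3 was the low one of that group, at 1.25 times the highest library labelled Tmem232-/-. Averages were 0.652 ± 0.114 (SD, n = 4) and 1.47 ± 0.356 CPM (SD, n = 4), with a log2 fold change of -1.16 (standard error 0.27). The coefficient of variation among the libraries labelled Tmem232-/- was 17.4%, where counting alone gives 31.2%, and the order of these 4 mice rests on 8 to 12 counts.

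Kcnk3 (Entrez 16527; chromosome 5, 30588170 to 30627231, + strand, 10 transcripts) had 1.80, 2.64, 1.90 and 1.84 CPM in replicates 1 to 4 with the Tmem232-/- label, from 27, 42, 30 and 30 counts. The libraries labelled Tmem232+/+ had 5.67, 3.15, 4.75 and 4.18 CPM, from 91, 52, 75 and 68 counts. Replicate 2 was the high library of the first group and the low one of the second, and these neighbouring values differed by a factor of 1.19. The means were 2.04 ± 0.397 (SD, n = 4) and 4.44 ± 1.06 CPM (SD, n = 4), with a log2 fold change of -1.11 (standard error 0.21).

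**Figure D1:**
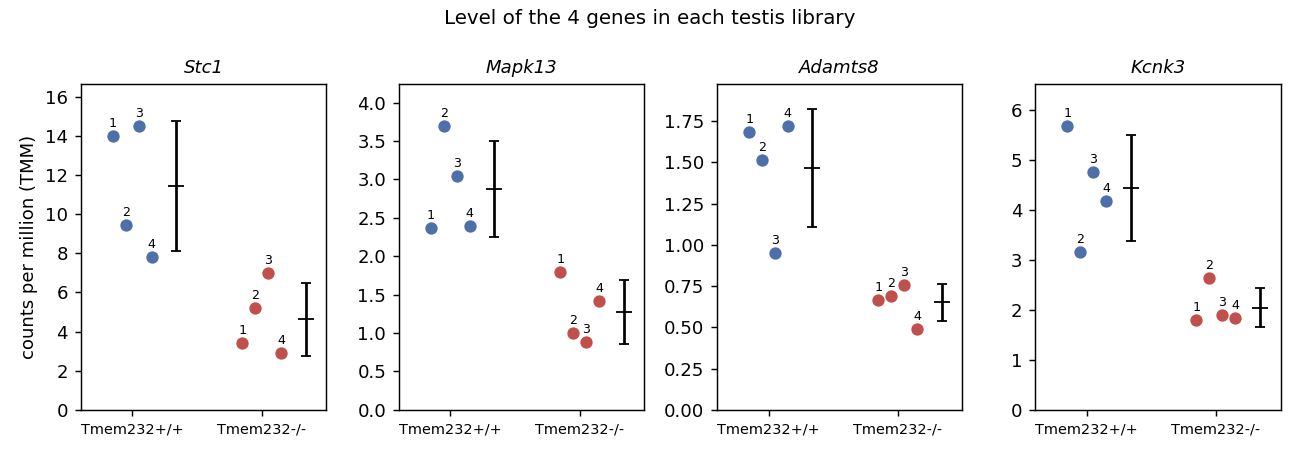
CPM after TMM scaling (vertical axis, from 0) of Stc1, Mapk13, Adamts8 and Kcnk3 in each of the 8 libraries. Points are single mice with their replicate number, blue for Tmem232+/+ and red for Tmem232-/-, and bars give the mean and SD of 4 libraries. The groups do not overlap for any of the 4 genes, and Stc1 spans 2.89 to 14.5 CPM.

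All 4 genes were low for a whole testis, where the median tested gene had 22.7 CPM. Among all tested genes, 1086, or 6.88%, were without overlap in the lower direction, 230, or 1.46%, were lower at an adjusted p under 0.05, and 1633, or 10.3%, were higher. The number called lower, the background of the lists described further on, was unstable, with 37 without replicate 1 labelled Tmem232+/+, 356 without replicate 4 labelled Tmem232-/- and 19 with libraries scaled to somatic markers. Of all tested genes, 30, or 0.190%, were lower by a factor of at least 2 whatever their p, and 214 genes missed only the limit on the fold. The nearest of these was Fibcd1, with 1.03 against 2.02 CPM and a log2 fold change of -0.97. Fam78b, Olfr1344 and Prss8 missed only the limit on the level, with means over the 8 libraries of 0.606, 0.700 and 0.498 CPM and log2 fold changes of -1.48, -1.33 and -1.19. LOC108168557 missed only the adjusted p, which was 0.0639 in edgeR, and had a log2 fold change of -1.68. Just inside the limits stood Adamts8 with its mean of 1.06 CPM and Kcnk3 with its log2 fold change of -1.11. In whole tissue, fewer cells of a type and less RNA per cell cannot be told apart.

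The libraries richest in epididymis markers touch Stc1 and Kcnk3. The summed level of the 5 epididymis markers in the table was 13.1, 6.21, 5.69 and 7.38 CPM in replicates 1 to 4 with the Tmem232-/- label and 39.7, 5.93, 20.4 and 6.70 CPM in those with the Tmem232+/+ label. Crisp1, a secreted protein of the epididymis, gave 27.0 and 9.94 CPM of these in replicates 1 and 3 labelled Tmem232+/+, 5.52 CPM in replicate 1 labelled Tmem232-/- and at most 0.861 CPM in the others. Those replicates 1 and 3 labelled Tmem232+/+ were also the pair of libraries with the most Stc1 and the most Kcnk3. Replicate 1 labelled Tmem232-/- went the other way. It was lowest of its group for Kcnk3, with 1.80 CPM, and its 3.39 CPM of Stc1 lay above only the 2.89 CPM of replicate 4. Without these 3 libraries, a setting chosen after the values were seen, the log2 fold change was -0.75 for Stc1, -0.76 for Kcnk3, -1.43 for Mapk13 and -1.29 for Adamts8. Stc1 and Kcnk3 then missed the limit on the fold. The part of epididymis RNA in the levels of the 4 genes was not tested.

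Levels per transcript length (FPKM) put each gene beside its relatives. The FPKM of Stc1 was 1.28 ± 0.512 against 3.24 ± 0.918 (SD, n = 4 each, the libraries labelled Tmem232-/- first), and that of Stc2, the other stanniocalcin, was 0.925 and 1.12. Stc1 made up 45.1% to 62.7% of the summed FPKM of both in the first group and 69.6% to 78.8% in the second. The ratio of Stc1 to Stc2 was 1.64, 1.44, 1.68 and 0.820 in replicates 1 to 4 with the Tmem232-/- label and 3.18, 2.29, 3.71 and 2.31 in those with the Tmem232+/+ label. The order of the pair was thus turned in replicate 4 labelled Tmem232-/- alone. By CPM, Stc2 had a log2 fold change of -0.24 (standard error 0.23, edgeR adjusted p = 0.551).

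Among the p38 kinases, Mapk14, which encodes the widely expressed p38 alpha, was highest in every library. Its FPKM was 9.55, 10.2, 10.5 and 10.6 in replicates 1 to 4 with the Tmem232-/- label and 11.3, 12.1, 11.7 and 12.0 in those with the Tmem232+/+ label. Mapk13 had an FPKM of 1.43, 0.820, 0.720 and 1.17 against 1.91, 3.08, 2.56 and 2.00. By mean FPKM it was rank 2 of the 4 in the libraries labelled Tmem232+/+ and rank 3, behind Mapk11, in those with the Tmem232-/- label. The share of Mapk13 in the summed FPKM of the kinases was 5.35% to 11.1% and 12.2% to 18.0%. Mapk11, for p38 beta, had a mean FPKM of 1.46 and 1.47 in the libraries labelled Tmem232-/- and Tmem232+/+, and Mapk12, for p38 gamma, had 0.588 and 0.653. Their log2 fold changes by CPM were 0.03 (standard error 0.15, edgeR adjusted p = 0.920) and -0.37 (standard error 0.27, adjusted p = 0.432), and that of Mapk14 was -0.15 (standard error 0.07, adjusted p = 0.206).

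**Figure D2:**
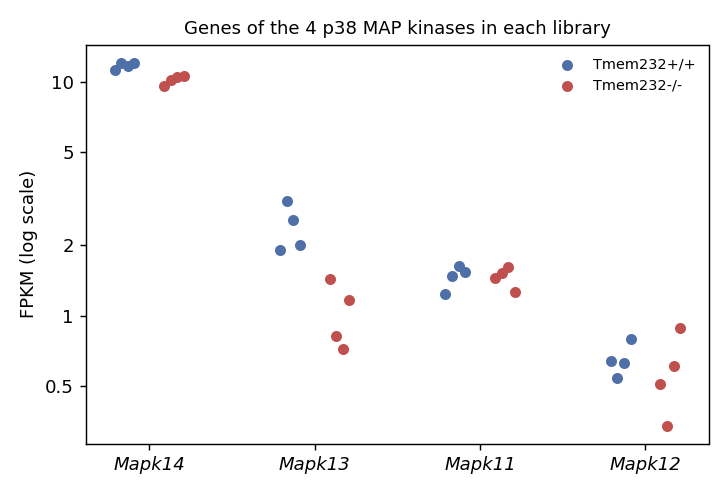
FPKM on a log scale (vertical axis) of the genes of the 4 p38 MAP kinases, one point per library, blue for Tmem232+/+ and red for Tmem232-/-. Mapk13 lies from 1.91 to 3.08 in the libraries labelled Tmem232+/+ and from 0.720 to 1.43 elsewhere, where Mapk11 stands at a like level, while Mapk14 is highest throughout.

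Adamts8 was a minor member of its family. It ranked 11 of 19 ADAMTS genes by mean FPKM in the libraries labelled Tmem232+/+ and 15 of 19 in those with the Tmem232-/- label, with 0.333 ± 0.0768 and 0.150 ± 0.0216 (SD, n = 4 each). Adamts5, a protease that cleaves aggrecan and versican, was the highest of the family with 4.28 and 4.0. Adamts15, which lies next to Adamts8 on chromosome 9, had an FPKM of 0.928 and 0.863. The ratio of Adamts8 to Adamts15 was 0.243 to 0.561 in the libraries labelled Tmem232+/+ and 0.138 to 0.214 in those with the Tmem232-/- label. The FPKM of Timp3, which encodes an inhibitor of several ADAMTS proteases, was many times that of Adamts8, with a ratio of Adamts8 to Timp3 between 0.00799 and 0.0241 over the 8 libraries.

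Kcnk3 ranked 7 of 13 genes of the K2P potassium channels, whose subunits each carry a pair of pore domains, by mean FPKM in the libraries labelled Tmem232+/+ and 8 of 13 in those with the Tmem232-/- label. Its FPKM was 0.480, 0.710, 0.510 and 0.520 in replicates 1 to 4 with the Tmem232-/- label and 1.53, 0.890, 1.34 and 1.16 in those with the Tmem232+/+ label. Kcnk5, which encodes the related acid- and alkali-sensitive channel TASK-2, went the other way. The ratio of Kcnk3 to Kcnk5 was 0.669 to 0.981 in the libraries labelled Tmem232+/+ and 0.154 to 0.260 in those with the Tmem232-/- label.

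Genes with known partners or relatives of the 4 were followed in 4 lists, namely the stanniocalcin and IGF axis, the p38 MAP kinase pathway, the ADAMTS proteases with their substrates and inhibitors, and the K2P channels, without the 4 genes themselves. Of 84 listed genes 73 were tested, none fell at an adjusted p under 0.05 in edgeR and 5, or 6.85%, rose, against 1.46% and 10.3% of all tested genes. At an unadjusted p under 0.05, 6 were lower and 6 higher, where 10.5% and 14.6% of all tested genes were. DESeq2 called 0 lower and 4 higher, and 1.25% and 10.3% of the 17560 genes it tested. The median log2 fold change was -0.12, against -0.05 for all tested genes, and 49 of the 73 had a negative value, as did 60.8% of all tested genes. Without replicate 4 labelled Tmem232-/- 3 genes were called lower, and without replicate 3 labelled Tmem232+/+ 1 was.

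In the stanniocalcin and IGF axis, 13 genes were tested, 1, or 7.69%, rose and none fell, where 10.3% of all tested genes rose, with a median log2 fold change of -0.18. Pappa, which encodes pappalysin 1, the protease that stanniocalcins inhibit, was the one that rose. It had 11.5, 11.4, 11.1 and 12.2 CPM in replicates 1 to 4 with the Tmem232-/- label and 5.92, 5.39, 5.83 and 6.45 CPM in those with the Tmem232+/+ label, a log2 difference of 0.97 (standard error 0.10, edgeR adjusted p = 7.52e-05). The groups were far apart relative to their spread. By FPKM the ratio of Stc1 to Pappa was 3.42 to 6.30 in the libraries labelled Tmem232+/+ and 0.656 to 1.86 in those with the Tmem232-/- label. The growth factors and their receptors did not pass the test, with log2 fold changes of 0.17 for Igf1, -0.40 for Igf2 (edgeR adjusted p = 0.0714), 0.04 for Igf1r and -0.22 for Igf2r. Neither did the binding proteins Igfbp2 to Igfbp7, which lay between -0.33 and -0.07. Of these Igfbp7, Igfbp6 and Igfbp4 had the highest FPKM of the list and log2 fold changes of -0.23, -0.18 and -0.13.

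In the p38 pathway, all 25 listed genes were tested, 2, or 8.0%, rose, a share near the 10.3% of all tested genes, none fell, and the median log2 fold change was -0.10. Both that rose encode phosphatases that remove the activating phosphates of p38 and JNK kinases. Dusp1 had 6.12, 6.84, 5.69 and 6.03 CPM in replicates 1 to 4 with the Tmem232-/- label and 3.55, 3.21, 3.74 and 3.38 CPM in those with the Tmem232+/+ label, a log2 difference of 0.83 (standard error 0.12, edgeR adjusted p = 7.68e-04). Dusp10 had 15.5, 12.1, 11.6 and 12.9 CPM against 4.11, 3.09, 5.89 and 5.47 CPM, a log2 difference of 1.49 (standard error 0.19, edgeR adjusted p = 2.23e-04). For both the groups did not overlap, as for 11.8% of all tested genes in this direction. Dusp16, a phosphatase of the same kind, had a log2 fold change of 0.03 (edgeR adjusted p = 0.918). The kinases upstream of p38 did not pass the test, with log2 fold changes of 0.06 for Map2k3, -0.14 for Map2k4 and -0.14 for Map2k6. The substrates did not either, among them Mapkapk2 with -0.04, Mknk2, a kinase of the translation factor eIF4E, with -0.16, Atf2, a transcription factor, with -0.06 and Prkd1, a kinase that p38 delta inhibits, with -0.24.

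Of the ADAMTS list 27 of 31 genes were tested, and 1, or 3.70%, rose, where 10.3% of all tested genes did. Adamts20, a protease of the branch of Adamts9, had 2.28 ± 0.358 (SD, n = 4) against 1.42 ± 0.0963 CPM (SD, n = 4), with 0.68 on the log2 scale (standard error 0.18, edgeR adjusted p = 0.0349), but this call was lost in 10 of 18 alternatives, with adjusted p between 0.00100 and 0.220. DESeq2 gave an adjusted p of 0.0916. Log2 fold changes were -0.34 for Adamts10 (edgeR adjusted p = 0.0680), 0.13 for Vcan and 0.29 for Acan, which encode the substrates versican and aggrecan, and 0.08, -0.18 and -0.16 for the inhibitors Timp2, Timp3 and Timp1, the 3 with the highest FPKM of the list. In the K2P list 8 of 14 genes were tested, and Kcnk5 alone, or 12.5%, rose, a share near that of all tested genes. Kcnk5 had 10.8, 9.35, 8.35 and 9.90 CPM in replicates 1 to 4 with the Tmem232-/- label and 5.17, 4.30, 6.21 and 4.79 CPM in those with the Tmem232+/+ label, a log2 difference of 0.91 (standard error 0.14, edgeR adjusted p = 9.01e-04). The groups did not overlap, as for 11.8% of all tested genes in this direction, which is opposite to that of Kcnk3. Kcnk2, Kcnk4, Kcnk10 and S100a10, the last a protein that binds TASK-1, had log2 fold changes between -0.25 and -0.23, that of Kcnk13 was 0.01, and none passed the test.

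**Figure D3:**
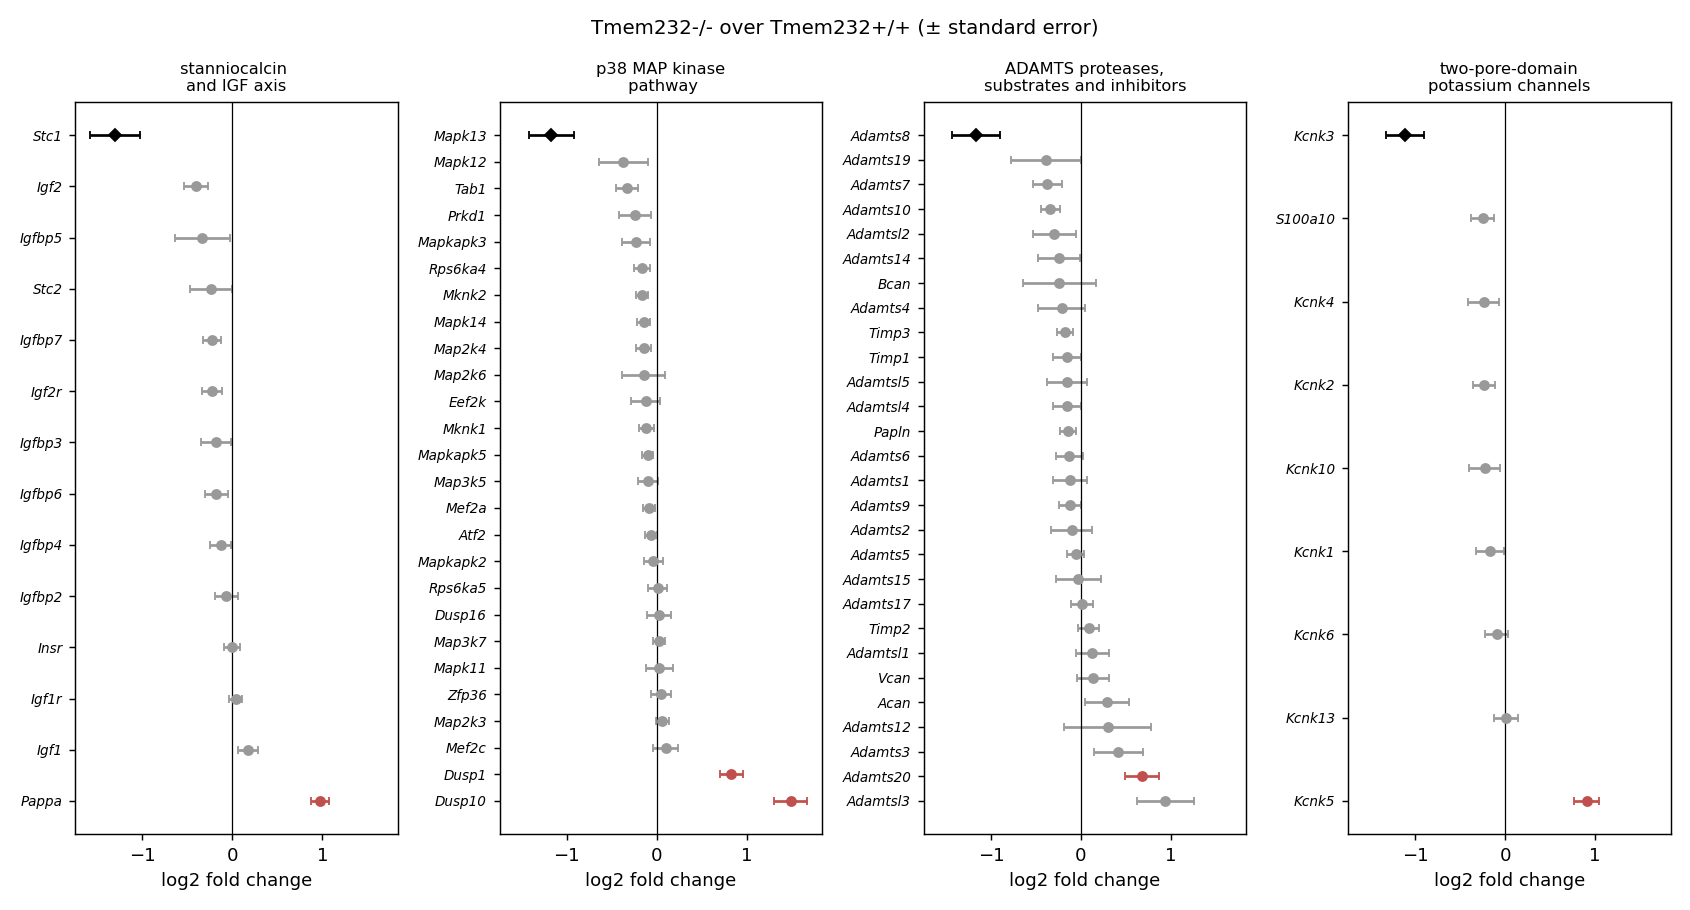
Log2 fold change of Tmem232-/- over Tmem232+/+ (horizontal axis, edgeR, bars are standard errors) for the tested genes of the 4 lists, with the gene of the 4 on top of its list as a black diamond. Red points are genes with an adjusted p under 0.05. The black diamonds lie between -1.30 and -1.11, the other genes lie between -0.40 and 1.49, and the 5 red points are all to the right of 0.

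Of the 7 tested neighbours of the 4 genes on their chromosomes, 2 rose and none fell at an adjusted p under 0.05. Of all tested genes 10.3% rose and 1.46% fell. The groups did not overlap in the lower direction for 3 of the 7 neighbours, namely Mapk14, Brpf3 and Slc35f6, where 6.88% of all tested genes did not. Mapk14 and Brpf3, on either side of Mapk13 at distances of 20557 and 22059 bases, had log2 fold changes of -0.15 and -0.12 (edgeR adjusted p = 0.206 and 0.228). Adamts15 and Zbtb44, on either side of Adamts8, had -0.03 and 0.03 (adjusted p = 0.957 and 0.843). Beside Kcnk3, Cib4, a calcium- and integrin-binding protein gene 42333 bases before it, rose from 5.56 ± 1.45 to 11.2 ± 1.77 CPM (SD, n = 4 each; log2 fold change 1.01, standard error 0.19, edgeR adjusted p = 0.00336), and Slc35f6 after it had -0.23 (adjusted p = 0.0663). Nkx2-6, the next tested gene after Stc1 at 130401 bases, rose from 7.16 to 11.3 CPM (log2 fold change 0.66, standard error 0.18, edgeR adjusted p = 0.0409). In the GENCODE annotation of GRCm38, 3 of the 4 genes overlap a gene on the opposite strand, Stc1 with Gm41192 over 415 bases, Adamts8 with Gm29724 over 9752 bases and Kcnk3 with Gm9899 over 450 bases. Whether counting used the strand is not given in the sources used here, so reads of these partners cannot be told apart from those of Stc1, Adamts8 and Kcnk3.

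Levels of the 4 genes were then set beside markers of the other cells of the testis, the somatic cells first. Of 63 markers of 7 somatic cell types 62 were tested, 2, or 3.23%, fell and 1, or 1.61%, rose, against 1.46% and 10.3% of all tested genes, and the median log2 fold change was -0.11. At an unadjusted p under 0.05 these were 8 and 8, where 10.5% and 14.6% of all tested genes were lower and higher, and DESeq2 called 2 lower and 4 higher, where it called 1.25% and 10.3% of all. The 2 that fell were markers of the contractile peritubular myoid cells. Acta2, smooth muscle actin, had 119 ± 11.2 in the libraries labelled Tmem232-/- against 154 ± 15.2 CPM (SD, n = 4 each; log2 fold change -0.38, standard error 0.09, edgeR adjusted p = 0.0182), and Myh11, smooth muscle myosin, had 58.2 ± 5.28 against 73.5 ± 3.60 CPM (-0.34, standard error 0.08, adjusted p = 0.0124). Actg2, an actin of enteric smooth muscle on the same list, rose, with 47.8 ± 5.25 against 20.8 ± 5.71 CPM (log2 fold change 1.20, standard error 0.17, adjusted p = 4.37e-04). The number called lower was 0 without replicate 1 labelled Tmem232+/+, 1 without replicate 1 or replicate 3 labelled Tmem232-/-, 4 without replicate 2 and 6 without replicate 4 of that label. Scaling to somatic markers, or leaving out the 3 libraries highest in epididymis markers, also left 0 called lower. The number called higher was 2 without replicate 1 labelled Tmem232-/- or without replicate 1, 2 or 4 labelled Tmem232+/+.

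Most somatic lists had medians a little under 0, and that of the Leydig cells, the source of testosterone, was above it. The median log2 fold change was -0.31 for the 8 peritubular myoid markers, -0.20 for 6 pericyte markers, -0.16 for 8 markers of interstitial fibroblasts, -0.14 for 11 Sertoli cell markers, -0.05 for 10 macrophage markers, -0.04 for 10 endothelial markers and 0.37 for 9 Leydig cell markers. In the peritubular list 7 of 8 markers were negative. Its markers with the highest FPKM were Acta2, which fell, and Actg2, the 1 positive marker, which rose, and both passed the test. In the other somatic lists those with the highest FPKM did not pass. Their log2 fold changes were -0.16 for Clu and -0.14 for Aard (Sertoli cells), and -0.02 for Insl3 and 0.37 for Hsd3b6 (Leydig cells). They were -0.17 for C1qa and -0.11 for C1qb (macrophages) and -0.07 for Cdh5 and Egfl7 (endothelium). Pericytes had -0.27 for Rgs5 and -0.21 for Pdgfrb, and fibroblasts -0.12 for Dcn and -0.26 for Col1a2. Among the macrophage markers 5 of 10 were positive, such as Mrc1 with 0.06 and Csf1r with 0.12, and among the endothelial markers 4 of 10 were, with values from -0.46 for Tie1 and -0.45 for Pecam1 to 0.39 for Vwf and 0.49 for Flt1. Of the Sertoli cell markers 2 of 11 were positive, Rhox5 with 0.05 and Trf with 0.69 (edgeR adjusted p = 0.0998). DESeq2 called 1 Sertoli cell marker higher, against 10.3% of the genes it tested. Of the Leydig cell markers 7 of 9 were positive, among them Cyp17a1 with 0.82, Star with 0.34 and Lhcgr, the receptor of luteinizing hormone, with 0.95 (edgeR adjusted p = 0.0512). At an unadjusted p under 0.05, 5 Leydig cell markers were higher, against 14.6% of all tested genes. DESeq2 called 2 Leydig cell markers higher, against 10.3% of the genes it tested. All 8 fibroblast markers had negative values. So did all 5 markers of red blood cells, a list outside the 7, with a median log2 fold change of -0.63. None of these 5 passed the test. Their summed level was 150 to 596 CPM in the libraries labelled Tmem232-/- and 305 to 595 CPM in those labelled Tmem232+/+. The summed level of the peritubular list was 343 to 402 CPM in the libraries labelled Tmem232-/- and 394 to 477 CPM in those with the Tmem232+/+ label, and that of the Sertoli cell list 1878 to 2393 and 2189 to 2293 CPM. Ranges of the summed level overlapped between the genotypes in each of the 7 lists, and no marker was at 0 in all libraries. With libraries scaled to the summed somatic markers in place of TMM, which moved the median log2 fold change of all genes from -0.05 to 0.05, the values were -1.21 for Stc1, -1.07 for Mapk13, -1.06 for Adamts8 and -1.03 for Kcnk3. Markers of early germ cells included some that were lower as well. Of 11 spermatogonium markers 4, or 36.4%, fell against 1.46% of all tested genes, with a median log2 fold change of -0.35, and their summed level was 254 to 285 CPM in the libraries labelled Tmem232-/- against 306 to 338 CPM. These were Stra8, which starts meiosis (-0.36, edgeR adjusted p = 0.0382), Sohlh1, a transcription factor (-0.55, adjusted p = 0.0351), the ubiquitin hydrolase gene Uchl1 (-0.35, adjusted p = 0.00423) and Sall4, a transcription factor (-0.48, adjusted p = 0.0227). Of the 11 spermatogonium markers 9 were negative and 2 positive. The positive ones were Gfra1 with 0.42 (edgeR adjusted p = 0.101) and Id4 with 0.01. Of 10 spermatocyte markers 1, or 10%, fell against 1.46% of all tested genes, with a median log2 fold change of -0.12. It was the recombinase gene Dmc1 (-0.34, edgeR adjusted p = 0.0186). Without the 3 libraries highest in epididymis markers or with somatic scaling no spermatogonium marker was called, and without a filter on low counts 2 were. With somatic scaling Dmc1 was not called either. Leaving out replicate 1 labelled Tmem232+/+ left 1 spermatogonium marker called, and leaving out replicate 2 of that label, or replicate 1 or 2 labelled Tmem232-/-, left 2. Dmc1 was not called without replicate 2 labelled Tmem232-/- or without replicate 2 or 4 labelled Tmem232+/+. A block for the replicate number left 2 spermatogonium markers called and Dmc1 not called. The part of these early germ cells in the levels of the 4 genes was not tested.

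The spermatid lists moved far more than the somatic lists, with summed levels of elongating spermatid markers of 1335 to 2207 CPM in the libraries labelled Tmem232-/- against 340 to 687 CPM, and the part of spermatid RNA in the levels of the 4 genes was not tested.

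**Figure D4:**
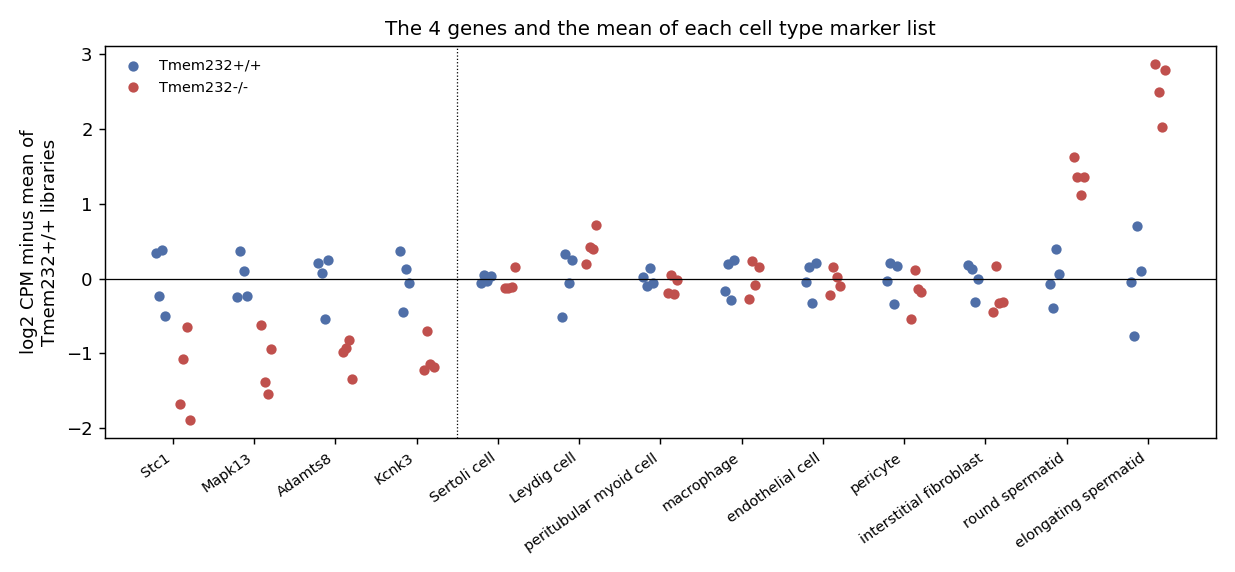
Log2 CPM of the 4 genes and mean log2 CPM of 9 marker lists in each library, relative to the mean of the libraries labelled Tmem232+/+ (vertical axis). Each point is 1 library, blue for Tmem232+/+ and red for Tmem232-/-. Red points lie below blue ones for the 4 genes, overlap them for the 7 somatic lists, and lie above them for both spermatid lists.

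Because the genotypes separate the 4 genes by choice, the relation to somatic markers was examined within genotype, on the deviations of each library from the mean of its genotype. Each of the 4 genes was compared with the mean log2 CPM of each of the 7 lists over the 8 libraries, which gave 28 pairs, with exact two-sided permutation tests over the 576 arrangements within genotype. None of the 28 had an adjusted p under 0.05, and none had an unadjusted p under 0.05 by Pearson's r or Spearman's rho. The largest was that of Adamts8 with endothelial markers (r = 0.718, exact permutation p = 0.0955, adjusted p = 0.672; rho = 0.762, p = 0.0556, adjusted p = 0.869). It was 0.443 without replicate 3 labelled Tmem232+/+ and replicate 1 labelled Tmem232-/-, the 2 libraries farthest from the median of that list. Leaving out single libraries gave an r of 0.271 to 0.824 for this pair. Next was Kcnk3 with peritubular myoid markers (r = 0.669, exact permutation p = 0.109, adjusted p = 0.672; rho = 0.595, p = 0.151), and its r was 0.761 without the 2 farthest libraries.

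The signs of these relations differed among the 4 genes. Stc1 was negative with Sertoli cell markers (r = -0.656, exact permutation p = 0.109, adjusted p = 0.672; rho = -0.381, p = 0.436), and Kcnk3 was negative with Leydig cell markers (r = -0.641, exact permutation p = 0.156, adjusted p = 0.672; rho = -0.524, p = 0.264). These were -0.471 and -0.269 without the 2 farthest libraries. Adamts8 was negative with the peritubular markers with which Kcnk3 was positive (r = -0.636, exact permutation p = 0.130, adjusted p = 0.672; rho = -0.405, p = 0.354), and its r was near 0 without the 2 farthest libraries. The values of r of Mapk13 lay between -0.460, with pericyte markers, and 0.278, with Sertoli cell markers. Of the 28 pairs 11 were positive and 17 negative, 9 changed sign without the 2 farthest libraries, and 14 changed sign when single libraries were left out. After adjustment over the 28 pairs, a pair on its own could pass only as the single most extreme of the 576 arrangements. The lack of adjusted calls therefore does not show that single pairs are unrelated. The labels give no batch within which to repeat the comparison.

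The 4 genes did not share a single order of the mice, although Stc1 and Adamts8 had the same order in the libraries labelled Tmem232-/-, from replicate 4 through 1 and 2 to replicate 3. Within genotype, r between Stc1 and Kcnk3 was 0.510 and that of Stc1 and Adamts8 was 0.06, while Mapk13 went against the other 3, with -0.586 to Stc1, -0.424 to Adamts8 and -0.602 to Kcnk3. Replicate 3 labelled Tmem232-/- was the highest of its genotype for Stc1 and Adamts8 and the lowest for Mapk13. In the libraries labelled Tmem232+/+, replicate 2 was highest for Mapk13 and lowest for Kcnk3, and replicate 3 was highest for Stc1 and lowest for Adamts8. These correlations are over 8 libraries of 4 low genes and are given as a description.

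The genes whose log2 CPM was most like that of each of the 4 over the 8 libraries, among 12132 or 12133 genes with a mean of at least 5 CPM, reflect the genotypes as well as the mice. For Stc1 they were 1700064H15Rik (r = 0.966), 0610030E20Rik (r = 0.964) and Noc4l (r = 0.962), and for Mapk13 they were Ddit4l (r = 0.980), Plekha1 (r = 0.974) and Eml3 (r = 0.973). For Adamts8 they were Cdk2 (r = 0.987), Sox17 (r = 0.985) and Prmt5 (r = 0.973), and for Kcnk3 Trmo (r = 0.989), Smtnl2 (r = 0.980) and Adgrl2 (r = 0.976). On the deviations within genotype, 0610030E20Rik (r = 0.956) was most like Stc1 and Trmo (r = 0.949) was next for Kcnk3 behind Polr1c (r = 0.974), whereas Tmem185b (r = 0.959) led for Mapk13 and Rad54b (r = 0.990) for Adamts8. No shared function or control was read from these values. The log2 fold changes of the 12 most alike over the 8 libraries were small, from -0.48 for Smtnl2 to -0.10 for 0610030E20Rik.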

How the data were processed

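The authors mapped paired reads of 8 testis libraries to GRCm38.p6 with HISAT and Bowtie2, obtained gene counts from StringTie and featureCounts, and ran DESeq2 between the genotypes. Versions and the use of strand are not given in the sources used here. The authors deposited estimated counts, without normalization, and FPKM, which is scaled to transcript length and library size. The deposited log2 fold changes, p-values and q-values of their own comparison were not used.

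After rounding, the counts were fitted with edgeR 4.0.16 in R 4.3.3 (default filter on low counts, TMM scaling, quasi-likelihood test without covariates) and Benjamini-Hochberg adjustment over 15787 genes. Between 10.7% and 11.2% of genes per library had counts that were not whole, but not Stc1, Mapk13, Adamts8 or Kcnk3. DESeq2 1.42.0 and limma 3.58.1 served for alternatives. Correlations were computed in Python 3.11.15 with scipy 1.17.1. Named genes were the 4 genes, the 5 nearest outside their criteria, the 3 most alike, the neighbours, Tmem232, the genes of the lists that passed the test, the 3 with the highest FPKM in each pathway list and at least 2 in each somatic list. Further list genes were named for their role after their values were seen. The 4 genes and all lists were chosen with earlier results of these data known. Each library is 1 mouse.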

Additional observations from a re-analysis of the deposited data

Results flagged for a closer look

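In groups of 4 libraries, 2 of 22 sets of values had a library far from the other 3, by a gap relative to the range of the group (above Dixon's limit), where chance gives about 1.1. Kcnk3 had 2.64 CPM in replicate 2 labelled Tmem232-/-, above the 1.80 to 1.90 CPM of the other 3, with a ratio of 0.880. The mean log2 CPM of Sertoli cell markers was 6.26 in replicate 4 labelled Tmem232-/-, against at most 6.0 in the other 3, with a ratio of 0.922. That library had the lowest Stc1 of the 8.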

How the results depend on the processing

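No fold change of the 4 genes or of the 5 called pathway genes was reversed in the alternatives run. For the 4 genes the direction is fixed by their choice. They had leave-one-out log2 fold changes of -1.58 to -1.12 for Stc1, -1.38 to -1.03 for Mapk13, -1.29 to -1.03 for Adamts8 and -1.26 to -0.93 for Kcnk3. With log2(FPKM + 1) in limma they were -0.74 for Mapk13, -0.21 for Adamts8 and -0.51 for Kcnk3, and with log2(FPKM + 0.1) -0.78 for Adamts8, since the pseudocount is large beside these levels. Without the 3 libraries highest in epididymis markers they were -0.75 for Stc1 and -0.76 for Kcnk3, 32 genes were called lower in all, and 0 somatic markers were lower and 2 higher. The 230 genes called lower became 139 with DESeq2 size factors, 415 with library size alone, 19 with somatic scaling, 71 without a filter, and 466 and 448 with the FPKM at pseudocounts of 1 and 0.1. Without single libraries they were 37 to 356, namely 86, 77, 79 and 356 without replicates 1 to 4 labelled Tmem232-/- and 37, 108 and 79 without replicates 1, 2 and 4 labelled Tmem232+/+. The cause was not tested. Pathway genes called lower were 0 to 3 without single libraries. Somatic markers called lower were 0 with somatic scaling and 0 to 6 without single libraries, and those called higher were 4 with DESeq2, 2 with its size factors, 7 with somatic scaling, 2 without a filter, 2 with at least 10 counts in every library, and 1 to 2 without single libraries. The filter of at least 10 counts left out Adamts8, which had 8 in 1 library.

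Within-genotype correlations with somatic markers did change sign, 11 times over the 28 pairs and 3 alternatives. None passed the test under these. After adjustment over 28 pairs, a pair on its own could pass only as the single most extreme of the 576 arrangements. With the median of a list in place of its mean, r was 0.121 for Stc1 with pericyte, -0.178 for Stc1 with fibroblast, 0.288 for Mapk13 with macrophage, -0.0729 for Adamts8 with macrophage, 0.231 for Kcnk3 with Sertoli cell and -0.235 for Kcnk3 with fibroblast markers, each of the other sign than reported. With log2(FPKM + 1) it was -0.0856 for Stc1 with fibroblast, 0.0737 for Mapk13 with peritubular, 0.00645 for Mapk13 with macrophage and -0.206 for Kcnk3 with pericyte markers, and with library size alone -0.0290 for the last pair.

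Equal replicate numbers did not pair the libraries, since the correlations of their deviations were -0.0606, 0.0716, -0.332 and -0.105. With the replicate block the log2 fold changes were -1.33 for Stc1, -1.17 for Mapk13, -1.15 for Adamts8 and -1.10 for Kcnk3, 28 genes were called lower in all, 1 somatic marker was lower and 5 were higher, and 2 spermatogonium and 0 spermatocyte markers were lower. Depth limits Adamts8 most, with 8 to 28 counts per library.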
